A study of Bos taurus with 16 samples.

Results

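On bovine chromosome 3, between positions 17000000 and 19200000 of the UMD3.1 genome, the deposited table lists 1889 regions of read coverage that it annotates as intergenic, which means that no annotated gene covers them. These are 1889 of the 2351373 regions in the table and of its 1254390 intergenic regions. The members were chosen by position, but the window was proposed with the coverage of these libraries known, so their levels are given as a description and carry no test. The libraries come from papillae clipped from the rumen wall of 16 crossbred steers (344 ± 48 days old, 1 library each) that were sorted by body weight gain and by dry matter intake. The 4 groups, of 4 steers each, are high gain with high intake (HGHI), high gain with low intake (HGLI), low gain with high intake (LGHI) and low gain with low intake (LGLI). No group received a treatment, and all steers ate the same corn-based ration without restriction. The animals were picked by quadrant, so gain and intake here are traits of the animals and not assigned conditions.

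In mammals this part of the genome is the epidermal differentiation complex, a cluster of genes for proteins of stratified epithelia. It holds the S100 calcium-binding proteins, involucrin (IVL) and the small proline-rich proteins (SPRR genes), which are cross-linked into the cornified envelope beneath the membrane of dying surface cells, and fused S100 and filaggrin-type genes such as CRNN, RPTN and TCHH. The rumen papilla is covered by a stratified, keratinised epithelium that absorbs short-chain fatty acids, so genes of this cluster belong to its ordinary repertoire. An intergenic label says only that the annotation used had no gene there.

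Levels are mean read coverage per base, which takes region length into account, and the libraries had been brought to almost equal totals when deposited. An estimated 11.9 to 21.2 M reads stood behind each library, and a single read in a region as long as the read is worth 0.56 to 1.00. Epithelial identity was checked on a fixed marker: KRT6A, a keratin of stratified epithelium, was at 851 to 3380 in the 16 libraries. Of 4 neutrophil markers, the 2 with an exon region (MPO and CXCR2) summed to 0 to 1.43 per library, and of 5 immune markers the 4 with one (PTPRC, CD3E, CSF1R and MS4A1) to 2.46 to 9.44. The summed level of 6 fibroblast markers was 132 to 330.25 in 15 libraries and 898.99 in LGLI replicate 3. Coverage of first exons was thin in 5 of the 16 libraries: HGHI replicate 4, HGLI replicates 2, 3 and 4, and LGLI replicate 3. Their first-exon index, the median log2 ratio of first-exon coverage to that of the other exons of a gene, was -2.74 to -2.11, against -1.37 to -0.48 in the other 11. The index averaged -1.76 ± 0.74 at high and -0.87 ± 0.67 at low gain (SD, n = 8 each, two-sided exact permutation p = 0.0242, Benjamini-Hochberg 0.0484 over 2 tests), and -1.08 ± 0.70 at high and -1.55 ± 0.90 at low intake (exact permutation p = 0.257, Benjamini-Hochberg 0.257). Leaving out these 5 libraries leaves 1 HGLI library, which is then assumed to vary like the other groups.

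A few unannotated regions were among the most covered sequences of the tissue. Among the 10 regions with the highest mean level of all, 3 were members, and there were 6, 12 and 32 among the highest 25, 100 and 1000. High intergenic regions were not particular to this window. Intergenic regions of the whole genome, members included, made up 7, 16, 59 and 407 of these. The region ranked 2 was an intergenic one on chromosome 14 (6785). The highest of all, chr3:17703918-17704047 (130 bases), averaged 8860 ± 3095 (SD, n = 16). That was above the best covered region of S100A12 (2066 bases, 3612 ± 1109), which encodes calgranulin C. It was also above those of PRDX6 (1434 bases, 2857), an antioxidant enzyme, and of KRT6A (1008 bases, 2097). Averages per base set a short peak here against longer regions. The highest region stood at 15415, 9670, 10766 and 7158 in HGHI, at 6696, 7874, 10824 and 5133 in HGLI, at 8091, 9437, 8756 and 12837 in LGHI, and at 8516, 10779, 1877 and 7935 in LGLI. Every group overlapped every other, and the lowest value, 1877, belonged to LGLI replicate 3, the library with the high fibroblast sum. In 11 of the 16 libraries the most covered region outside the mitochondrial genome was a member.

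The region ranked 3, chr3:17722022-17722153 (132 bases), lay 18 kb farther along and averaged 6591 ± 1583. Its values were 6086, 7042, 8124 and 6022 in HGHI, 7257, 6266, 7511 and 5133 in HGLI, 7382, 5600, 6577 and 7702 in LGHI, and 7891, 6463, 1844 and 8551 in LGLI. Apart from replicate 3 of the last group, these libraries lay within a narrow band of 5133 to 8551. Its neighbour chr3:17720947-17721986 (1040 bases), ranked 10, was at 1387 to 3055, and chr3:17423676-17424382 (707 bases), ranked 11, at 587 to 3941. For comparison, the best covered region of IVL (2372 bases) averaged 397 and that of SPRR3 (2442 bases) 50.5. Both lie inside the window, and these are averages over longer regions on the same scale. The other members were mostly faint: 1774 of the 1889 had a mean under 1, 1043 were above 0 in 1 library only, and 103 were above 0 in all 16.

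**Figure D1:**
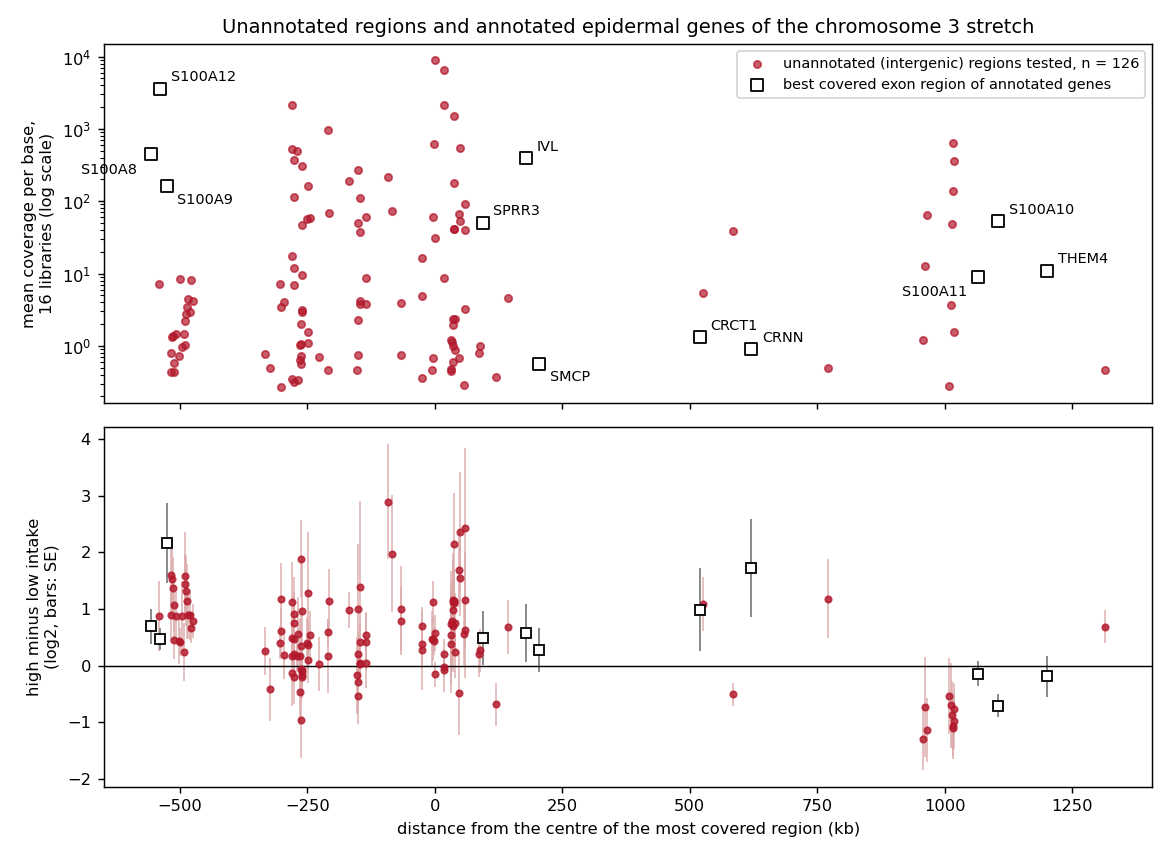
Mean coverage per base over 16 libraries (upper panel, log scale) and the high-minus-low intake difference (lower panel, log2 with limma SE) of the 126 tested unannotated regions (red) and of the 11 tested epidermal genes of the window (open squares), against distance in kb from the centre of the most covered region. The most covered red points lie around 0 kb and 280 kb to its left, where no annotated gene falls, and the red points near 1008 kb lie below 0 in the lower panel.

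Together the members held a median of 2.27% of a library's sequenced bases, although they are 0.151% of the intergenic regions. They held 11.5% of all intergenic bases. The share was 3.67%, 2.36%, 2.47% and 2.10% in HGHI, 2.41%, 2.25%, 2.30% and 1.53% in HGLI, 2.31%, 2.09%, 2.44% and 3.07% in LGHI, and 2.13%, 2.05%, 0.743% and 2.17% in LGLI. The highest and the lowest belonged to HGHI replicate 1 and LGLI replicate 3, and all 4 groups overlapped. Most of this came from few regions, since 98.8% of the members' bases fell in the 126 members that were tested.

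Those 126 are the members of at least 100 bases with a level of at least 0.5 in at least 4 libraries. Of the rest, 49 passed the level filter but were shorter and 1714 did not pass it. The members just inside the filter reached 0.53, 0.55 and 0.56 in the fourth highest library, and those just outside 0.49, 0.48 and 0.48. A member that is high in 1 group of 4 could pass through that group alone, so the tested members are no sample of all members.

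The signal was concentrated between 2 annotated genes. The interval from LELP1, a late cornified envelope-like gene, to SPRR3 held 608 members, 90 of the 126 tested and 92.39% of the members' bases, with no annotated gene between them in the table. LELP1 itself averaged 0.0506, from a region of 48 bases that was above 0 in 1 library. A later RefSeq annotation (assembly ARS-UCD2.0, used here for names and neighbour order only) lists 17 entries between LELP1 and IVL: 5 protein-coding genes, 11 long non-coding RNAs and 1 pseudogene. Among them are SPRR4 and LOC507527, which carries the older name SPRR1B. Which entry, if any, a given member belongs to cannot be read from names and order, since the positions are on another assembly.

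The interval from TCHHL1 to S100A11 held 76 members, 7 of them tested, and 5.48% of the members' bases, and RefSeq lists the microRNA gene MIR2284Z-4 and the long non-coding RNA LOC112445947 between those genes. Between CRNN, the cornulin gene, and TCHHL1 there were 106 members, 4 tested, with 1.3% of the bases, where RefSeq places LOC112445945, RPTN and TCHH. Between S100A9 and the loricrin gene LOR there were 352 members, of which 19 were tested, but they held only 0.6% of the bases.

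Members within 1000 bases of each other were joined into 229 stretches, 82 of them single regions. Neighbouring regions may be pieces of 1 transcript and are not independent. The 6 stretches with the most sequenced bases together held 80.9% of the members' bases. They are called A to F here, in that order. Stretch A is chr3:17698258-17705311 (14 members, 23.86% of the bases), stretch B chr3:17712942-17723456 (41 members, 23.19%), and stretch C chr3:17421366-17429756 (24 members, 14.24%). Stretch D is chr3:17733608-17743357 (24 members, 9.98%), stretch E chr3:18712330-18724061 (46 members, 5.48%), and stretch F chr3:17606678-17613207 (28 members, 4.17%). A, B, C, D and F lie between LELP1 and SPRR3, and E lies between TCHHL1 and S100A11.

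The stretches differed in how steady they were from animal to animal. Stretch B, the steadiest, was at 809, 868, 942 and 1092 in HGHI, 876, 1097, 1147 and 691 in HGLI, 806, 601, 731 and 1005 in LGHI, and 849.5, 719.8, 484 and 939 in LGLI. Its highest library was 2.37 times its lowest (599 times in stretch F), and the groups overlapped throughout. Stretch A was at 950.4, 535, 594 and 523 in HGHI, 464, 449, 667 and 344 in HGLI, 461, 523, 484 and 841 in LGHI, and 479, 581, 164 and 461 in LGLI. In 2 groups 1 animal stood well above the other 3, at 950.4 and 841. Stretch C was at 427, 489, 410.2 and 267 in HGHI, 558, 240.1, 315 and 326 in HGLI, 499, 539, 374 and 762 in LGHI, and 382, 421, 96.0 and 412 in LGLI. In stretch C all 5 libraries low in first exons, at 96.0 to 326, lay below the other 11, at 374 to 762.

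Stretch D was at 340, 238, 203 and 136 in HGHI, 96.2, 198, 149.6 and 28.3 in HGLI, 204, 102, 256 and 171 in LGHI, and 93.5, 132, 18.8 and 219.7 in LGLI. Stretch E was at 7.22, 97.2, 14.8 and 57.1, at 180.1, 109, 112 and 106, at 107, 70.5, 48.1 and 102, and at 219, 26.9, 46.2 and 77.4 in the same order of groups. Stretch F was at 733, 25.9, 289 and 92.7, at 18.9, 80.8, 17.1 and 1.66, at 45.4, 36.7, 274 and 89.2, and at 6.11, 182, 1.22 and 34.2. In E, HGHI (7.22 to 97.2) lay wholly below HGLI (106 to 180.1), and all other pairs of groups in D, E and F overlapped. The library highest in F, HGHI replicate 1, was the lowest in E.

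**Figure D2:**
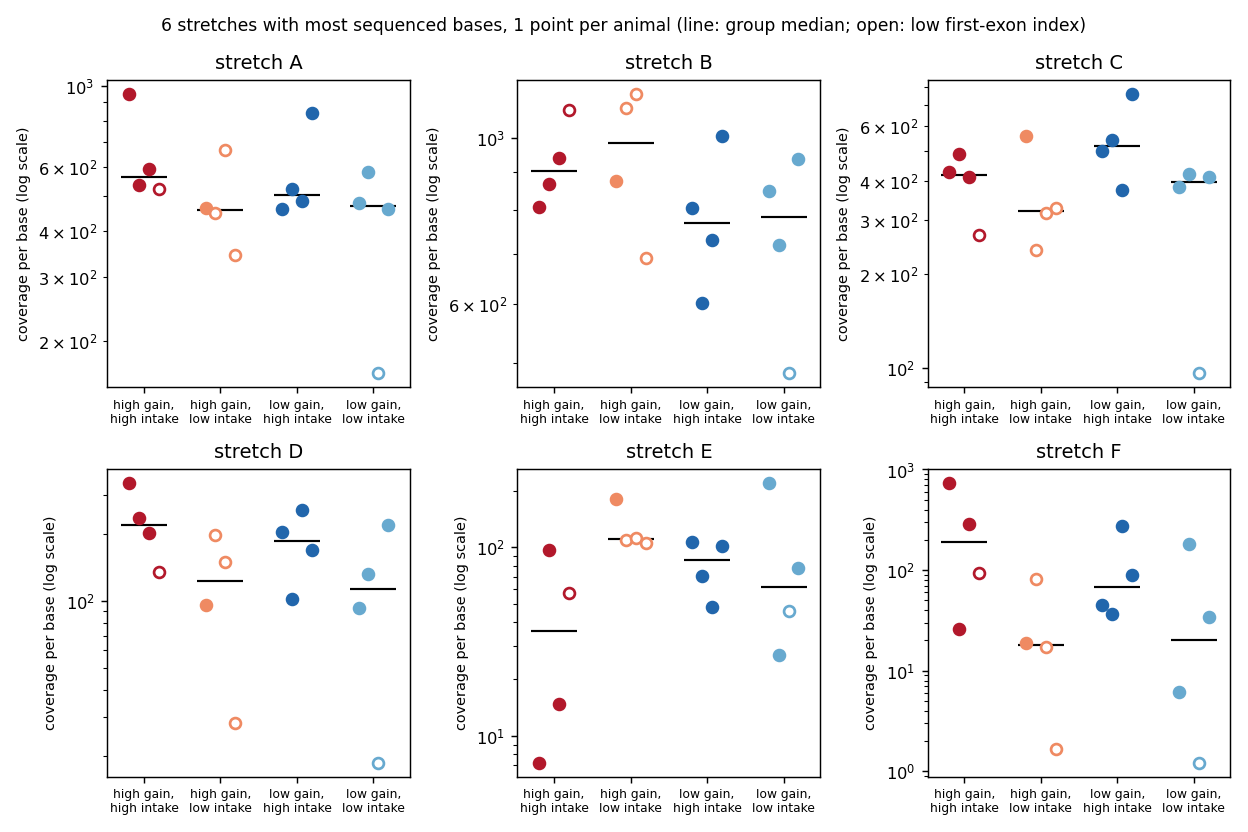
Coverage per base (log scale) of stretches A to F in each of the 16 libraries, by group, with the group median as a line and the 5 libraries low in first exons as open circles. The groups overlap in all panels except that HGHI lies below HGLI in stretch E, and stretch F runs from 1.22 to 733 while stretch B stays between 484 and 1147.

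For intake, no member passed the threshold. In bulk tissue, fewer cells of a type and less RNA per cell cannot be told apart. The test was limma on log2(level + 0.1) with Benjamini-Hochberg adjustment at 0.05 over all 99004 regions tested, which called 0% of them (smallest adjusted p of a member 0.622). At an unadjusted p under 0.05, 23 of the 126 members differed, where 6.53% of all regions tested did. Of these, 21 were higher at high intake (2.91% of all regions were), in 11 stretches, and 2 were lower (3.62% of all regions were). Those 2, named after their values were seen, were chr3:18288395-18288844 (log2 -0.51) and chr3:18662136-18662361 (-1.29). The median log2 difference of the 126 was 0.48, against 0.08 over all regions tested, and 97 were positive. No member had all 8 high-intake libraries above all 8 low-intake ones, which held for 0.00808% of all regions tested, and none had all 8 below, which held for 0.0182%.

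These counts moved with the libraries that were kept. Without the 5 libraries low in first exons 16 of 117 members were higher at unadjusted p under 0.05 (2.75% of all regions were), the median was 0.08 (-0.11 over all regions) and 65 of 117 were positive. With the first-exon index as a covariate 8 of 126 were higher (2.1% of all regions were) and the median was 0.26 (-0.06 over all regions). Without LGLI replicate 3 it was 10 (1.68% of all regions). Leaving out HGHI replicate 1 or 3 gave 11 each, HGLI replicate 4 gave 10, and LGHI replicate 1 or 3 gave 13 each. Over all libraries left out in turn, the higher count ran from 10 to 29 and the lower from 1 to 7. Quantile normalization moved the median of all regions by more than 0.1, from 0.08 to -0.09, and that of the members from 0.48 to 0.44.

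The largest intake estimate among the tested members was that of chr3:17609948-17612530 (2583 bases), the main region of stretch F. It stood at 1312, 46.3, 518 and 166 in HGHI, 33.8, 145, 30.7 and 2.98 in HGLI, 81.3, 65.7, 491 and 159.7 in LGHI, and 10.9, 326, 2.19 and 61.3 in LGLI. All 8 high-intake libraries lay above the low-intake median, yet the groups overlapped from 46.3 to 326. The log2 difference was 2.90 (SE 1.02, limma unadjusted p = 0.0124, adjusted p = 0.622), 2.3 to 3.5 with any 1 library left out, and 2.23 (SE 1.11) without the 5 libraries low in first exons.

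Among the other members named for intake, chr3:17534013-17536128 (2116 bases) averaged 245 ± 89.3 in high-intake and 137 ± 86.8 in low-intake animals (SD, n = 8 each). Its values were 228, 199, 158 and 149 in HGHI, 330.2, 88.6, 81.6 and 145 in HGLI, 244, 386, 220.04 and 372 in LGHI, and 118, 139.97, 41.3 and 155 in LGLI. All 8 high-intake libraries lay above the low-intake median, and 1 low-intake library, at 330.2, reached among the highest (log2 0.98, SE 0.32, limma unadjusted p = 0.00808). The estimate was 0.17 (SE 0.21) without the 5 libraries low in first exons and 0.64 (SE 0.24) with the index as a covariate. The region chr3:17699272-17700081 (810 bases) of stretch A averaged 81.9 ± 43.6 at high and 37.3 ± 20.5 at low intake, with all 8 again above the low-intake median (log2 1.12, SE 0.37, limma unadjusted p = 0.00828), and its estimate was 0.74 (SE 0.45) without the 5 libraries. The last 3 named, chr3:17185457-17185800, chr3:17441834-17441947 and chr3:17213130-17213417, averaged 0.43, 0.56 and 1.02, with medians of 2.8, 1.5 and 7.3 estimated reads, so their log2 differences of 1.60, 1.89 and 1.45 rest on few reads. They were 1.07, 1.07 and 0.81 without the 5 libraries. Among the highest members, chr3:17741378-17742212 of stretch D averaged 1906 ± 689 in the high-intake animals and 1081 ± 651 in the others (log2 1.11, SE 0.47, limma unadjusted p = 0.0335), and the 2 highest, in stretches A and B, had estimates of 0.58 (SE 0.31) and 0.20 (SE 0.26). The other high members spread differently: chr3:17495137-17495539 ran from 468 to 1756 (intake log2 0.59), chr3:17752695-17753317 from 22.2 to 1758 (1.55), chr3:17700752-17703867 of stretch A from 219.7 to 1139 (0.43), and chr3:18720803-18720948 of stretch E from 37.9 to 1776 (-1.10). Against the median of the animals that ate less, the first of these 4 was higher in 8 of 8 high-intake libraries and the last in 1 of 8. These 4 estimates were -0.05, 1.51, 0.27 and -1.64 without the 5 libraries, that of the stretch D region was 0.83, and those of the 2 highest members were 0.45 and -0.10, so 2 of these 7 changed sign.

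For gain, 0% of all regions tested and no member passed the threshold (smallest adjusted p of a member 0.359). At unadjusted p under 0.05, 6 members differed, where 10.4% of all regions did: 6 were higher at high gain (0.966% of all regions were) and 0 lower (9.41% of all regions were). The members' median log2 difference was 0.09 against -0.14 over all regions, with 74 of 126 positive. With the first-exon index, which itself differed by gain, as a covariate 27 members were higher at unadjusted p under 0.05, where 13.9% of all regions were, and the median was 0.60 against 0.05. Without the 5 libraries 3 of 117 were higher (0.87% of all regions) and 2 lower (12.7%). Without LGLI replicate 3 there were 4 higher (3.49% of all regions) and 10 lower (28.3%), and the median turned to -0.06 against -0.22 over all regions. In that fit 3 members passed the adjusted threshold, where 12.1% of all regions did: chr3:17188886-17189275 (log2 -1.83), chr3:17440543-17440647 (1.86) and chr3:18230827-18230984 (-0.78, adjusted p = 0.0266). Leaving out HGHI replicate 4 or HGLI replicate 2 gave 2 higher. The median of all regions rose from -0.14 to -0.02 when scaled by exon bases and to 0.18 by quantile normalization, and that of the members to 0.20 and 0.28. The only highly covered member named for gain was chr3:17720947-17721986 of stretch B, at 2051, 2114, 2253 and 3051 in HGHI, 2138, 3037, 3055 and 1762 in HGLI, 1854, 1387, 1703 and 2532 in LGHI, and 1951, 1680.3, 1455 and 2185 in LGLI. High gain was above the low-gain median in 7 of 8 libraries, with overlap from 1762 to 2532 (log2 0.40, SE 0.17, limma unadjusted p = 0.0349, adjusted p = 0.446). Without the 5 libraries low in first exons, 4 of which are high gain, it was 0.19 (SE 0.17, adjusted p = 0.758). The 3 others named, chr3:17823973-17824369, chr3:17440543-17440647 and chr3:17760244-17760691, averaged 0.37, 0.73 and 0.29, with log2 differences of 1.06, 1.57 and 1.40, and of 0.82, 0.81 and 1.24 with the index as a covariate. Marker sums of 2 other cell types are given beside these values. The sum of 5 endothelial markers was 7.03 to 14.47 at high and 14.51 to 24.83 at low gain, with no overlap, and that of 6 smooth muscle markers had a median of 19.68 in HGHI, 16.01 in HGLI, 35.64 in LGHI and 64.72 in LGLI, with overlap between high and low gain. Their part in the gain values was not tested.

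The intake difference was also compared between the gain classes. No member and 0% of all regions passed (smallest adjusted p of a member 1). At unadjusted p under 0.05, 9 members differed, where 1.29% of all regions did. All 9, which lie in 5 stretches, had a lower intake difference at high than at low gain (1.03% of all regions did). None, 0, had a higher one (0.255% did). The median was -0.68 against -0.08 over all regions. Without the 5 libraries low in first exons 25 of 117 were lower (2.15% of all regions) and 2 higher (4.89%), with the index as a covariate 32 were lower (5% of all regions), and with 1 library left out the lower count ran from 2 (without HGHI replicate 3) to 18 (without HGHI replicate 4). Both named members belong to stretch E. The region chr3:18720488-18720642 (155 bases) stood at 8.67, 85.5, 19.9 and 52.1 in HGHI, 294, 87.97, 186 and 188 in HGLI, 247, 141, 85.2 and 150.5 in LGHI, and 398, 37.8, 57.3 and 162 in LGLI. At high gain all 4 high-intake libraries lay below the 4 low-intake ones, while at low gain they overlapped, and 4 of these 8 high-gain libraries are low in first exons (interaction log2 -2.96, SE 1.05, limma unadjusted p = 0.0129). Its neighbour chr3:18718580-18720320 had an interaction of -3.05 (SE 1.19, limma unadjusted p = 0.0212).

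HGLI was set against LGHI, the 2 quadrants that differ on both axes. No member and 0% of all regions passed (smallest adjusted p of a member 0.179). At unadjusted p under 0.05, 12 members in 7 stretches differed, where 17.6% of all regions did. Of these, 2 were higher (2.77% of all regions were) and 10 lower (14.9% of all regions were). The median was -0.33 against -0.16 over all regions, and quantile normalization moved these to 0.06 and 0.32. The members' median also turned positive without the 5 libraries low in first exons, 3 of which are HGLI and none LGHI (0.10, with 2 higher and 7 lower of 117, where 1.32% and 8.33% of all regions were). It was also positive with the index as a covariate (0.33 against 0.10), where 8 members were higher (9.95% of all regions) and 1 lower (2.29%). Without LGLI replicate 3, 19 were lower (23.2% of all regions) and 3 passed the adjusted threshold, where 7.52% of all regions did: chr3:17188886-17189275 (log2 -2.83), chr3:17213902-17214238 (-2.68) and chr3:18230827-18230984 (-1.37, smallest adjusted p 0.0177). The 2 named members were faint: chr3:17823973-17824369 averaged 0.37 (log2 1.74, SE 0.53) and chr3:17190435-17190636 averaged 1.35 (log2 -2.50, SE 0.78, and -1.18 without the 5 libraries).

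Of 65 genes listed for this cluster, 16 had an exon region in the window, 11 were tested, and none passed the adjusted threshold in any contrast with all 16 libraries. Without LGLI replicate 3, 1 of the 11 did, S100A10 in HGLI against LGHI, where 7.52% of all regions did. For intake 3 were higher at unadjusted p under 0.05 (2.91% of all regions were): S100A8 (log2 0.69, SE 0.31) and S100A9 (2.16, SE 0.71), the calprotectin subunits, and S100A12 (0.47, SE 0.19). S100A10, the annexin A2 partner, was lower (-0.71, SE 0.21, where 3.62% of all regions were lower). The median of the 11 was 0.49, against 0.08 over all regions. Without the 5 libraries low in first exons 1 of the 11 was higher, S100A9 (1.81, SE 0.75), and the median was 0.08 against -0.11. LOR, LELP1, LCE1B, TCHHL1 and THEM5 did not pass the filter. In the 40 listed cornified layer genes outside chromosome 3, of which 31 were tested, the intake median was 0.86 with 27 positive, 8 higher and 1 lower at unadjusted p under 0.05 (2.91% and 3.62% of all regions), and none called. The median of these genes was 0.31, against -0.11 over all regions, when the 5 libraries were left out. The 8 higher genes, named after their values were seen, include KLK7, KLK8, KLK9 and KLK10, kallikrein proteases of epithelial surfaces. The others are CNFN, ALOX12, SERPINB1 and GRHL1, and the lower gene is SERPINB2. KLK7 averaged 0.825 and was at 0 to 0.05 in the low-intake libraries, near the floor.

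Stretch F followed S100A9 across the animals more closely than any other of 8917 genes. Over the 16 libraries the Pearson r of their log2 levels was 0.98 (Spearman rho 0.97), and over the 11 libraries without low first-exon coverage 0.96, again the highest. S100A9 stood at 573, 60.9, 258 and 167 in HGHI, 35.9, 114, 58.5 and 8.36 in HGLI, 137, 127, 393 and 201 in LGHI, and 24.9, 292, 8.68 and 101.15 in LGLI. HGHI replicate 1 was the highest in both, and HGLI replicate 4 and LGLI replicate 3 the lowest. The genes next in order were SLC5A1, a sodium and glucose cotransporter gene (0.91), S100A8 (0.90), the elastase inhibitor gene PI3 (0.89) and LBP, which encodes the lipopolysaccharide-binding protein (0.89). The S100A9 region ends 427 kb before stretch F. These values are correlations across libraries that share their scaling and differ in depth. The naming rule fixed like genes only for the 3 highest stretches, A to C, so those for D, E and F were chosen after their values were seen.

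Stretch E went the other way. Its r with S100A9 was -0.58 over 16 libraries and -0.84 over the 11, with S100A8 -0.61 and -0.85, and with stretch F -0.62 and -0.91. With the 2 libraries farthest from the median left out, the last of these was -0.35. The genes most like E were NOV (0.87 over 16, 0.92 over 11), a secreted matricellular protein gene, and CYP4F2, a fatty acid hydroxylase gene (0.81 and 0.91).

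**Figure D3:**
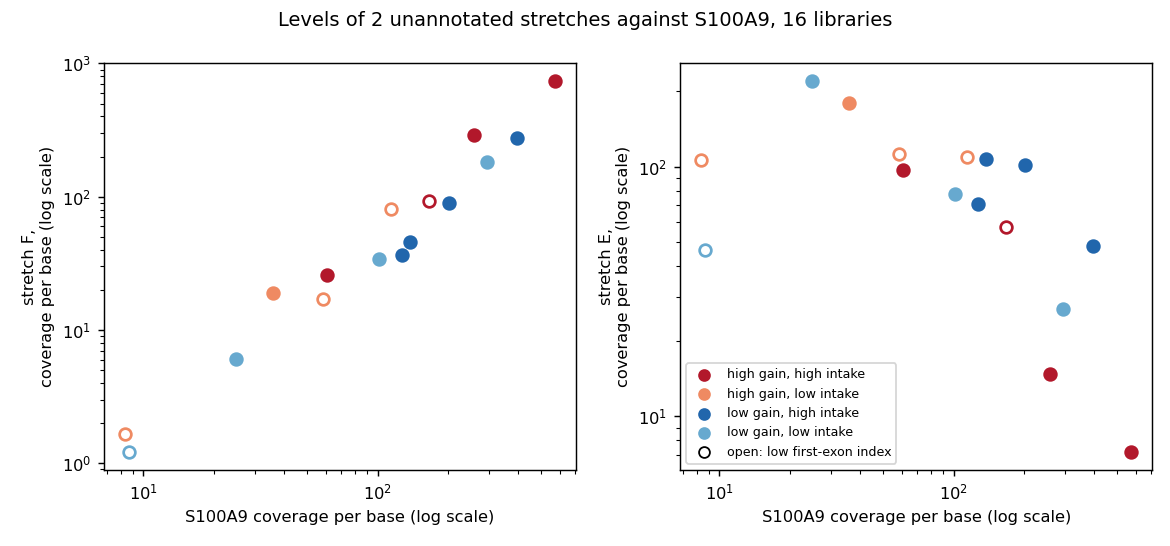
Coverage per base of stretch F (left) and stretch E (right) against that of S100A9 in 16 libraries (log scales), coloured by group, with the 5 libraries low in first exons as open circles. Stretch F rises with S100A9 across the whole range, while stretch E is lowest in the libraries highest in S100A9.

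For stretches A to C, r was lower over the 11 libraries than over all 16 for each of the 5 genes ranked highest. Stretch A was most like SEC24C, a vesicle coat gene (r 0.89, and 0.77 over the 11), C16H1orf116 (0.88, and 0.79), HKDC1 (0.86, and 0.62), GPX3 (0.86, and 0.66), a secreted glutathione peroxidase gene, and GSDMA (0.85, and 0.58), a gasdermin gene of stratified epithelium. Stretch B was most like IFI30 (0.80, and 0.69), KCNK6 (0.76, and 0.40), ZW10 (0.75, and 0.64), PIM1 (0.74, and 0.41) and KRT6A (0.73, and 0.25). Stretch C was most like MYD88 (0.94, and 0.64), TRIM62 (0.94, and 0.50), LY6G6C (0.93, and 0.73), SCAMP2 (0.93, and 0.74) and SMPD1 (0.93, and 0.59). The first value of each pair is over 16 libraries and the second over the 11. Over the 11, SEC24C ranked 18 of 8917 genes for stretch A, IFI30 9 for B and MYD88 49 for C. With the 2 libraries farthest from the median left out, their r was 0.52, 0.56 and 0.87. Stretch D, chosen after its values were seen, was most like TGM3 (0.91, and 0.62), the transglutaminase that cross-links envelope proteins, and its r with S100A9 was 0.85, and 0.66 over the 11.

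The 45 tested members with a mean of at least 10 were grouped, after their values were seen, wherever more than 25 kb separated neighbours, which gave 8 groups. The 12 members around stretch C (chr3:17422625-17460813) and the 6 at chr3:17534013-17569502 correlated with a median r of 0.74 over 72 pairs in different stretches, both over 16 and over 11 libraries. The 12 and the 16 members at chr3:17678860-17763241, which include stretches A, B and D, had a median of 0.20 over 192 pairs, and -0.18 over the 11 libraries. The 2 members at chr3:18663647-18669754 and the 4 of stretch E had a median of 0.87 over 8 pairs, and 0.94 over the 11.

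**Figure D4:**
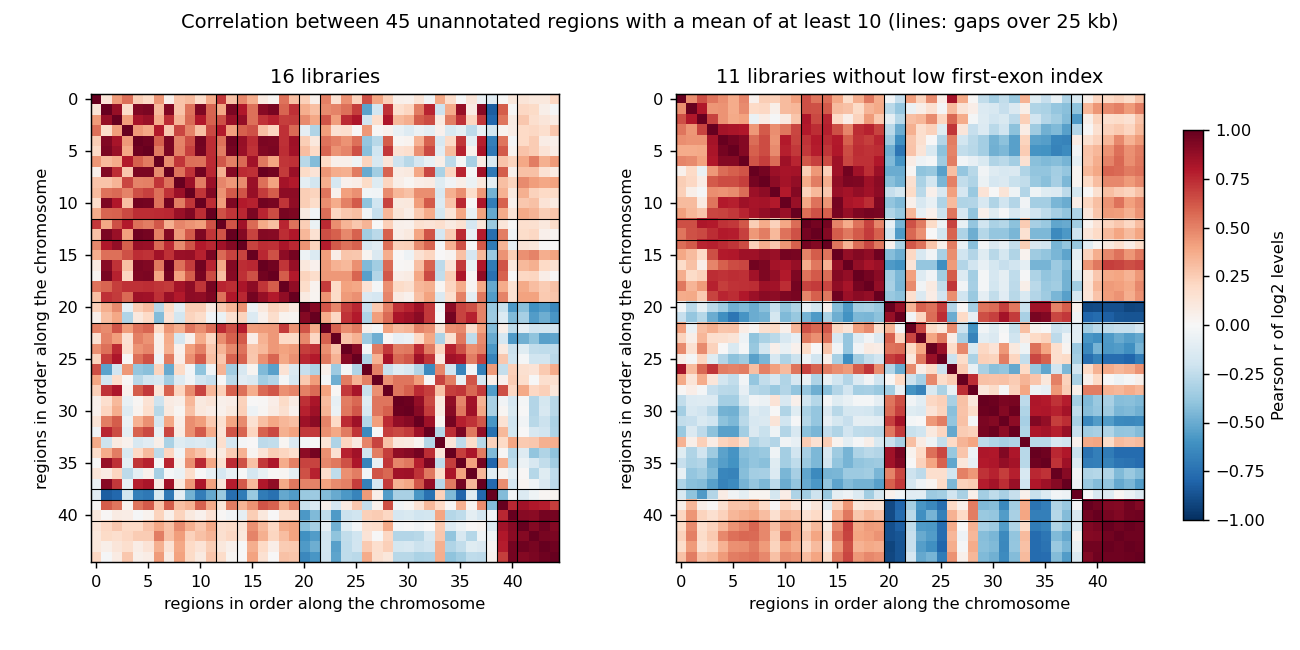
Pearson r of log2 levels between 45 unannotated regions with a mean of at least 10, in order along the chromosome, over 16 libraries (left) and over the 11 that are not low in first exons (right), with lines at gaps over 25 kb. The first 20 regions are mostly red against each other, and the last 6 form another red block that is blue against part of the middle in the right panel.

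Some short regions beside a well covered longer one were thin in the libraries low in first exons. The region chr3:17423601-17423665 (65 bases), ranked 21 in the table, lies 10 bases before chr3:17423676-17424382. Its log2 ratio to that neighbour was -7.69, -7.43, -1.66, -1.34 and -7.52 in the 5 libraries low in first exons (in the order named above) and -0.88 to -0.31 in the other 11. Its own level was 7.78, 8.53, 574, 689 and 3.1 in those 5 and 1129.7 to 2569.9 in the others, with no overlap. In 4 of the 7 such pairs, chosen after their values were seen, all 5 libraries lay below the other 11. Short regions of lower mean were not among the 7 and went both ways. The level of chr3:17704922-17704992 was 12.79 to 24.73 in the 5 and 7.34 to 17.92 in the 11. That of chr3:17433376-17433442 was 0 to 9.59 in the 5 and 11.67 to 43.81 in the 11. For chr3:17569587-17569685 (99 bases) beside chr3:17569298-17569502 the ratio was -1.07 to 1.79 in the 5 and -0.56 to 1.66 in the 11. Whether these short regions are first exons was not tested. Of the 126 tested members 9 had all 5 of these libraries below the other 11 (7.14%, where 18.1% of all regions did), and none had all 5 above (where 1.31% did).

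**Figure D5:**
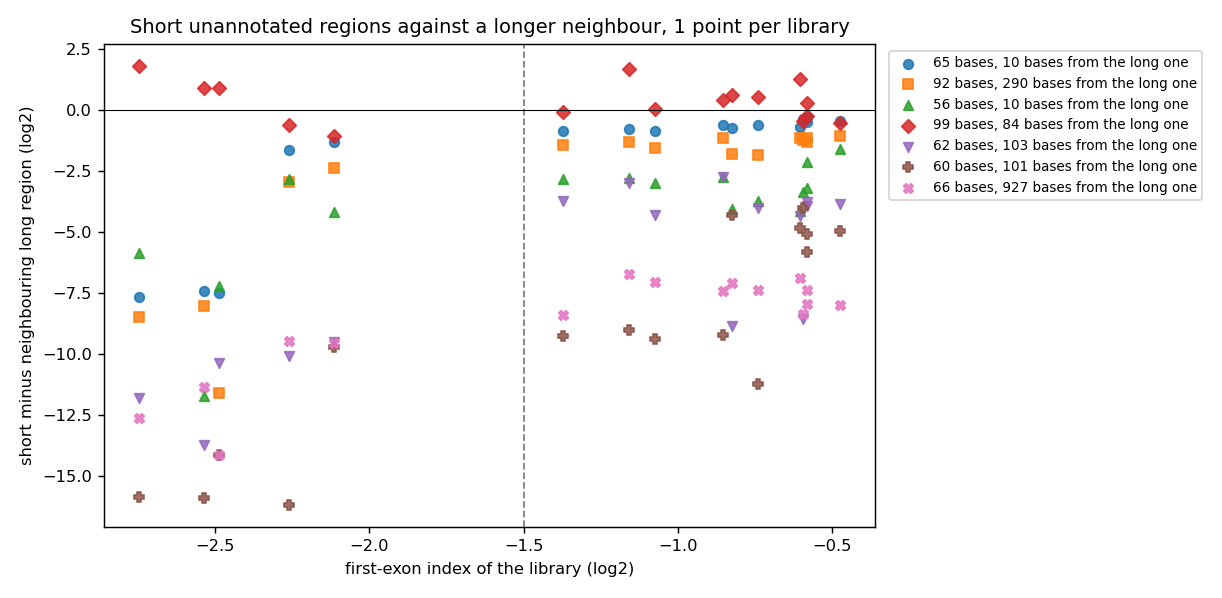
Log2 ratio of 7 short unannotated regions (56 to 99 bases) to a longer neighbour against the first-exon index of the library, 1 symbol per region and library, with the dashed line at the index limit of -1.5. The 5 libraries left of the line lie lower for most pairs, and for the 99-base region they do not.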

How the data were processed

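Per the labels' protocols, the 16 libraries were made from polyadenylated RNA and sequenced in single 50-base reads. TopHat2 2.08b and UMD3.1 are named in the submitters' processing notes. For the aligner settings, annotation release and coverage tool, no source used here gives a name. The deposited values are signal, namely average coverage of a region's bases multiplied by a library factor. This unit was read from the values themselves, whose sum over bases came to 591.1 to 595.9 Mb per library. The file lists no counts, so no count test was used. Sample columns were matched by the identification number in the titles.

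Regions of 100 bases or more that reached a level of 0.5 in 4 or more libraries were fitted on log2(level + 0.1) with limma 3.58.1 in R 4.3.3 (trend and robust, 4 group means, Benjamini-Hochberg over 99004 regions, two-sided). The script was tested on simulated data with the spread of the real regions. Of 100 regions given an intake log2 change of 2, 41 were recovered, and of 100 given 4, 76 were. Another 5 regions were called falsely. A region that was not called may therefore still have changed. Fold changes on this scale understate those of low regions. A gene's level is that of its best covered exon region. The first-exon index used 1897 genes with at least 6 exons. Tables were made with Python 3.11.15, pandas 2.3.3 and scipy 1.17.1. Members named were the 10 highest, then 6 for intake, 4 for gain, 2 for the interaction and 2 for the opposite quadrants by unadjusted p, then the window's annotated genes and the 6 largest stretches. The members, gene lists and tests were chosen with earlier results of these data known. P-values rest on the spread between animals with 1 library each, so differences between animals and between libraries cannot be told apart in it. Alternatives changed the pseudocount, filters, length minimum, scaling, libraries, covariate and joining distance. Sequences are not shown because no genome of this build was used here.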

Additional observations from a re-analysis of the deposited data

Results flagged for a closer look

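Of 80 groups of 4 libraries checked for a library far from the other 3, 7 were noted. Chance gives about 1 in 20 for a single check. The regions, stretches and share checked here overlap and come from the same libraries, so that rate cannot be set against the 7. The region chr3:17700752-17703867 of stretch A was at 1139.33 in HGHI replicate 1, against 610.7 to 687.24 in the other 3 libraries of that group, and at 1037.48 in LGHI replicate 4, against 532.11 to 537.87. Stretch A as a whole gave the same 2 libraries, at 950.405 against 522.715 to 593.55 and at 840.917 against 460.817 to 522.865, and the region holds 3116 of its 5995 covered bases. Stretch C was at 96.036 in LGLI replicate 3, against 381.566 to 421.101. Stretch E was at 180.087 in HGLI replicate 1, against 105.75 to 111.841. The members' share of library bases was 0.743% in LGLI replicate 3, against 2.051% to 2.173%. That library is low in first exons and has the highest fibroblast marker sum, 898.99, and the part of either in these values was not tested.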

How the results depend on the processing

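No paired analysis was possible because replicates carry accession-order numbers, which pair no animals. The count of members past the adjusted threshold stayed 0 for intake and the interaction in every alternative run. For gain it ran from 0 to 3 and for HGLI against LGHI from 0 to 3 with 1 library left out, and the 3 appeared in both only without LGLI replicate 3 (smallest adjusted p 0.0266 and 0.0177, where 12.1% and 7.52% of all regions were called). The gain calls were chr3:17188886-17189275, chr3:17440543-17440647 and chr3:18230827-18230984. The cause was not tested. The members' median share was 3.59% with exon bases outside the mitochondrial genome as denominator and 2.25% to 2.30% with 1 library left out. Stretches numbered 651 at a joining distance of 200 bases and 80 at 5000. Over 11 libraries r was 0.765 for SEC24C, 0.693 for IFI30 and 0.64 for MYD88. Each member named for a contrast kept the sign of its log2 difference in that contrast in every alternative that could be fitted. These members were picked by their unadjusted p in the same libraries, so the kept sign is no separate support. Medians over the members did turn: for gain from 0.09 to -0.06 without LGLI replicate 3, and for HGLI against LGHI from -0.33 to 0.06 by quantile normalization, 0.10 without the 5 libraries low in first exons and 0.33 with the index as a covariate. The gain difference in first-exon index was -1.13 to -0.76 with 1 library left out. Levels near 1 read (0.56 to 1.00) limit the faint members.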
